A study of Mus musculus with 10 samples.

Results

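The comparison described here sets mouse embryonic fibroblasts (MEFs, cultured connective-tissue cells) with a high level of Cirbp mRNA against MEFs with a low level. The high group is the 2 libraries of mock-transfected cells kept at 32 °C, and the low group is the 2 libraries of cells transfected with siRNA against Cirbp and kept at 37 °C. Neither group is the mock-transfected 37 °C group (2 libraries), which is shown as a further level beside both. Another 2 libraries carry siRNA against Rbm3 at 37 °C. The series also holds 1 PAR-CLIP library each for FLAG-tagged Cirbp and Rbm3, both at 37 °C. These were made from MEFs that stably expressed the tagged protein in medium with 100 µM 4-thiouridine for 16 h. RNA-seq read polyadenylated RNA at 76 nt, single-end. The labels give no strain, passage, transgene, age of the embryos or time at 32 °C, and no group received a control siRNA. The 2 groups differ at once in temperature, in siRNA or mock transfection and in Cirbp level, and these cannot be told apart. Genes were taken by adding the FPKM of their listed transcripts (a level per transcript length, scaled by how many fragments of the library were mapped). Of 22552 listed genes, 10741 averaged 1 FPKM or more across these 4 libraries and had a transcript of 200 nt or longer. All differences below are mock 32 °C minus siCirbp on the log2(FPKM + 1) scale, which understates changes of low genes.

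Cirbp and Rbm3 are small glycine-rich RNA-binding proteins whose mRNAs are known to increase when mammalian cells are cooled by a few degrees. Both bind many mRNAs, and both have been linked to the choice of the site at which a transcript is cleaved and polyadenylated, and to the amplitude of clock genes. Mild cold is also known to slow the cell cycle of cultured cells. A mock-transfected cell goes through transfection without siRNA.

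The sequences behind the best known regulators of Cirbp and of some mitosis, replication and glycolysis genes are shown first. They are bases before the RefSeq start on GRCm38.p6. The genes were picked by hand and only promoters that hold the letters are shown, so they do not stand for their lists. The levels of Cdc20, Cdk1 and Pgk1 are not given here. In the Cirbp promoter the capitals mark TCCCCGCC, the mild-cold-responsive element letters. In the promoters of 3 mitosis genes they mark CCAAT and the cell cycle homology region (TTTGAA or TTCGAA, read on both strands). In those of 2 genes of the replicative helicase they mark E2F letters (TTTCCCGC, TTTGGCGC, TTTCGCGC or TTTGCCGC, on both strands), and in Pgk1, a glycolysis gene, the hypoxia core (ACGTG or GCGTG, on both strands). Each sequence runs 5′ to 3′ on the gene's strand and ends at the base before the start.
Cirbp (chr10:80167589-80167838, plus strand): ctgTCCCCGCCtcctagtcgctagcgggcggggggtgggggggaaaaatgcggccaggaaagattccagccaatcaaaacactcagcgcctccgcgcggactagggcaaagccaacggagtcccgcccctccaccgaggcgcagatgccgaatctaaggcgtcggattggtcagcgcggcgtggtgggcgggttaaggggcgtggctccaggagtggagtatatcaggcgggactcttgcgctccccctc
Ube2c (chr2:164769809-164769928, plus strand): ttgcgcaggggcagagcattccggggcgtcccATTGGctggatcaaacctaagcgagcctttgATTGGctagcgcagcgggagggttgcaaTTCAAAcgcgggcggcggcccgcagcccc
Cdc20 (chr4:118437344-118437463, minus strand): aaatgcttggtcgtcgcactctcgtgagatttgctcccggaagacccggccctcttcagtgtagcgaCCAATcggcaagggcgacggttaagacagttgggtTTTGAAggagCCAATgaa
Cdk1 (chr10:69352913-69353032, minus strand): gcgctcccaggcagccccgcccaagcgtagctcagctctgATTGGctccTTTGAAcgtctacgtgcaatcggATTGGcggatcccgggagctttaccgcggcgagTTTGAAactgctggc
Mcm5 (chr8:75109339-75109508, plus strand): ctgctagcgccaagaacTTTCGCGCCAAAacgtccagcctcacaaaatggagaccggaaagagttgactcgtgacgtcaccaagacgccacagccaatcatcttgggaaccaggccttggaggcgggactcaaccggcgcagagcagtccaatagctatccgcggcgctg
Mcm6 (chr1:128359706-128359825, minus strand): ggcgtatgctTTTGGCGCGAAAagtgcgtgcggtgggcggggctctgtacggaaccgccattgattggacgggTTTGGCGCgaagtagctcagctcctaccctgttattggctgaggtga
Pgk1 (chrX:106186930-106187099, plus strand): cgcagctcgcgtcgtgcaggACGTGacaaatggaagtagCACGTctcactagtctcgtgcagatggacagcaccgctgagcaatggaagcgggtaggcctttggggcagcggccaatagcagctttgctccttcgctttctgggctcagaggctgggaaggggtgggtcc

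Cirbp itself (chromosome 10, 79630586 to 79634398 on mm9) was read at 34.5 and 37.2 FPKM in the mock 32 °C libraries against 10.8 and 6.07 in those of siCirbp. The 2 groups did not overlap, and the mean was 4.26-fold higher in mock 32 °C (35.9 ± 1.92 against 8.42 ± 3.32 FPKM, SD, n = 2 each; log2 difference 2.01, SE 0.30, limma adjusted p = 0.00235). Mock 37 °C lay between them at 15.9 and 17.1 FPKM. Rbm3 (chromosome X, 7716101 to 7722928) had the reverse order of levels, with 5.54 and 7.55 FPKM after siCirbp against 3.64 and 3.2 at 32 °C, and did not pass (log2 difference -0.76, SE 0.29, limma adjusted p = 0.0818). Of the 2 groups compared, the low Cirbp one therefore had more Rbm3 RNA. Mock 37 °C was below both groups, at 1.85 and 2.21 FPKM. The Rbm3 transcripts share 1 start and split by 3′ end. The 2900 nt transcript with the distal end stood at 0.586 and 0.636 FPKM in mock 32 °C against 4.63 and 6.88 in siCirbp. The transcripts with the proximal end, at 7719482, stood at 3.06 and 2.57 FPKM against 0.908 and 0.678. In mock 37 °C the distal transcript stood at 1.45 and 1.68 FPKM and the proximal ones at 0.402 and 0.522. The distal share of all Rbm3 FPKM was thus 83.6% and 91.0% after siCirbp, 76.3% to 78.3% in mock 37 °C, and only 16.1% and 19.8% at 32 °C. These splits rest on 47 to 553 fragments per library for the long transcript and 14 to 108 for the short ones, of which the 14 and 18 are those of mock 37 °C. They were picked after their values were seen and were not tested.

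**Figure D1:**
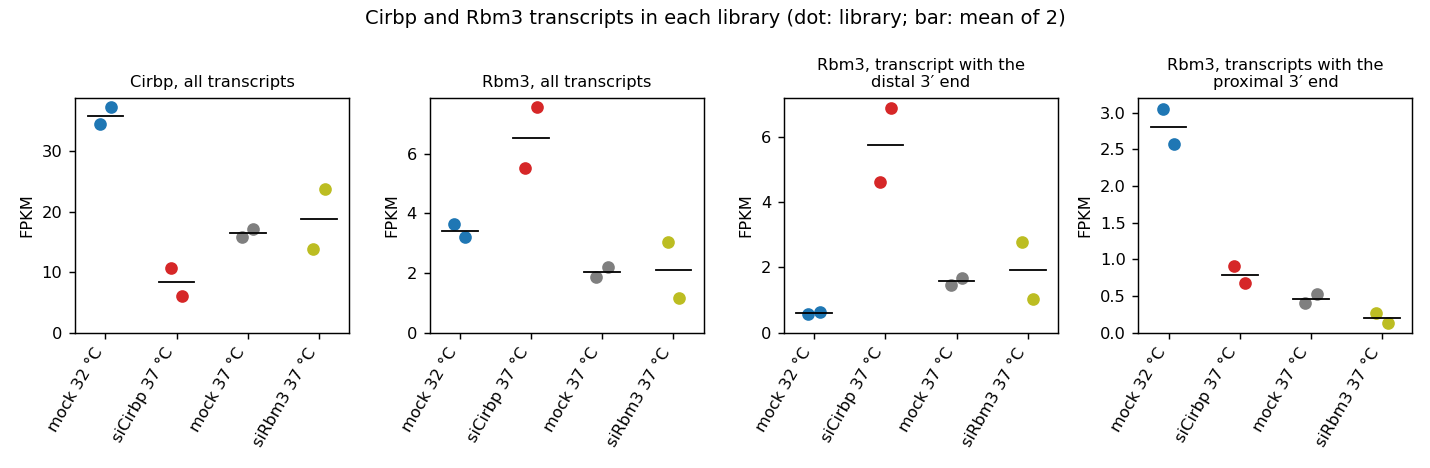
FPKM (vertical axis, linear, from 0) of Cirbp and Rbm3 in each of the 8 RNA-seq libraries, by group; dots are libraries and bars the mean of 2. Cirbp is at 34.5 and 37.2 in mock 32 °C and at 10.8 and 6.07 in siCirbp, while the distal Rbm3 transcript is at 0.586 and 0.636 against 4.63 and 6.88.

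Of the 5 other tested genes of the cold-inducible and cold-shock-domain list (median difference -0.30 over 7 genes), 1 passed. This was Ybx1, which encodes a Y-box RNA- and DNA-binding protein with a cold-shock domain, at 18.5 and 19.9 FPKM in mock 32 °C against 43.9 and 49.8 in siCirbp (log2 difference -1.24, SE 0.14, limma adjusted p = 0.000879). Csda, another cold-shock-domain protein, was at 97.9 and 95.6 FPKM in mock 32 °C against 97.95 and 146 in siCirbp. Carhsp1 was at 31.1 and 36.1 FPKM in mock 32 °C against 39.2 and 36.7 in siCirbp and Csdc2 at 2.89 and 3.07 FPKM in mock 32 °C against 4.19 and 5.14 in siCirbp. None of these 3 passed limma (adjusted p from 0.0897 to 0.638).

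Over all genes tested, 3403 of 10741 (31.7%) passed limma's adjusted p of 0.05. They were 993 genes (9.24%) higher and 2410 (22.4%) lower in mock 32 °C, of which 355 and 944 differed at least 2-fold on the log2(FPKM + 1) scale. The counts of each gene list below are to be read against these shares. In every called gene the 2 libraries of one group lay above the 2 of the other. This follows largely from the call and is no added support for it. Genes far from the threshold also had no overlap, such as Carhsp1 (limma adjusted p = 0.638) and Csda (limma adjusted p = 0.333). The median difference of all genes was -0.11, and centring each library on its median moved it by 0.20, after which 1799 genes were higher and 1622 lower. The excess of lower genes therefore depends on the scaling, while differences well past 0.20 do not. The siCirbp libraries differed more from each other (median gap 0.26 on the log2 scale, Pearson r 0.959 over genes) than the mock 32 °C libraries (0.11, 0.995). Each siCirbp library correlated more with siRbm3 replicate 1 (Pearson r 0.975 and 0.971) than with the other siCirbp library, over genes, which are not independent replicates. Without replicate 1 or 2 of mock 32 °C the count fell to 1192 and 1090, and without replicate 1 or 2 of siRbm3 the number higher rose to 1667 and 1668. Without replicate 1 or 2 of mock 37 °C it was 622. Depth was similar, at 24.8 to 27.8 M mapped fragments per library. Nothing in the labels tells if replicates 1 and 2 were grown separately, or if numbers 1 and 2 of siCirbp stand for different siRNAs, so the p-values measure only the spread between these libraries. An exact permutation test of 2 against 2 libraries cannot go below p = 0.333.

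**Figure D2:**
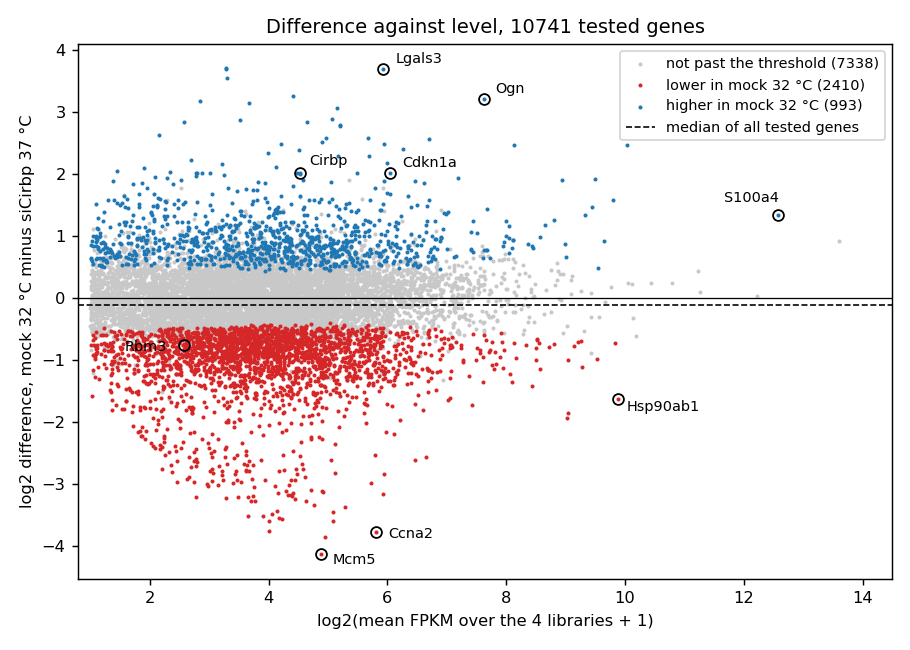
Each dot is a tested gene, placed by log2(mean FPKM over the 4 libraries + 1) and by its log2 difference, mock 32 °C minus siCirbp; colours give limma's call and the dashed line the median of all genes (-0.11). Lower genes reach -4.14 (Mcm5), and the higher ones 3.70 (Crct1).

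Genes of mitosis were the group with the lowest median. All 44 tested members were lower in mock 32 °C and passed, with differences from -3.85 to -1.65 and a median of -2.97. Ube2c, the ubiquitin-conjugating enzyme of the anaphase-promoting complex, was at 2.46 and 3.59 FPKM in mock 32 °C against 60.4 and 53.1 in siCirbp (log2 difference -3.85, SE 0.20, limma adjusted p = 3.68e-05). Ccna2, cyclin A2, was at 6.08 and 7.18 FPKM in mock 32 °C against 102 and 106 in siCirbp (-3.78), and Plk1, a kinase of mitotic entry, at 1.62 and 2.26 FPKM in mock 32 °C against 32.3 and 34.9 in siCirbp (-3.56). Aurkb, the kinase of the chromosomal passenger complex, was at 1.79 and 1.89 FPKM in mock 32 °C against 32.2 and 32.6 in siCirbp, and Birc5, survivin, of the same complex at 10.6 and 11.7 FPKM in mock 32 °C against 108 and 109 in siCirbp. Ncapd2, a condensin subunit, was at 4.03 and 4.25 FPKM in mock 32 °C against 59.7 and 63.3 in siCirbp. In each of these genes both siCirbp libraries lay far above both mock 32 °C libraries, and mock 37 °C lay between the groups, as it did in all 44 members. All 44 passed with any 1 of the 8 libraries left out. For Ccna2 mock 37 °C stood at 42.2 and 39.6 FPKM and for Plk1 at 14.6 and 14.8. In each gene named in this paragraph the siRbm3 libraries also lay above both mock 37 °C libraries. They stood at 61.7 and 53.3 FPKM for Ccna2 and at 23.9 and 27.6 for Plk1. For Bub1, another member, they were at 18.1 and 6.15 FPKM, on either side of mock 37 °C (12.6 and 13.1). In bulk RNA, fewer cells in mitosis and less RNA per cell cannot be told apart.

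Genes of DNA replication and nucleotide supply were lower in mock 32 °C in 39 of 43 tested members, with a median of -1.83 and none higher. Mcm5, a subunit of the replicative helicase (chromosome 8, 77633427 to 77652338), had the largest fall of all named genes, from 42.4 and 66.96 FPKM in siCirbp to 1.75 and 2.44 in mock 32 °C (log2 difference -4.14, SE 0.29, limma adjusted p = 0.000101). Mcm3 of the same helicase was at 3.89 and 5.37 FPKM in mock 32 °C against 50.7 and 71.5 in siCirbp, and Mcm6 at 22.8 and 24.4 FPKM in mock 32 °C against 54.01 and 90.6 in siCirbp. Lig1, the ligase that joins Okazaki fragments, was at 2.94 and 3.1 FPKM in mock 32 °C against 28.1 and 40.7 in siCirbp (-3.12). Pole2, a subunit of DNA polymerase epsilon, was at 1.01 and 0.658 FPKM in mock 32 °C against 6.38 and 7.56 in siCirbp, and Rfc5, of the clamp loader, at 2.88 and 3.19 FPKM in mock 32 °C against 14.1 and 15.6 in siCirbp. Here siCirbp replicate 2 was the higher of its group for Mcm5, Mcm3, Mcm6 and Lig1. Mock 37 °C lay between the groups in 30 of the 43, at 8.48 and 10.8 FPKM for Mcm5. Hist1h4i, a histone H4 gene, fell as well (3.36 and 4.12 FPKM in mock 32 °C against 21.2 and 19.4 in siCirbp, log2 difference -2.17, SE 0.24, limma adjusted p = 0.000847). It was the only one of 5 tested replication-dependent histone genes to pass, and their mRNAs mostly lack poly(A) tails and are poorly read by this assay. Without siCirbp replicate 2, 4 of the 5 passed. The others named were Hist2h3c1 at 0.616 and 0.791 FPKM in mock 32 °C against 4.3 and 1.21 in siCirbp, Hist1h1e at 0.512 and 0.61 FPKM in mock 32 °C against 2.6 and 0.643 in siCirbp and Hist1h2bc at 24.6 and 27.7 FPKM in mock 32 °C against 79.8 and 14.6 in siCirbp.

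Promoter letters are given as a description with no test. Of 38 mitosis genes with a RefSeq promoter, 29 (76.3%) held cell cycle homology letters within 250 bases before to 50 after a start and 30 (78.9%) held CCAAT, against 16.0% and 43.7% of the 8638 tested genes with one. Over all 27025 symbols with a promoter the shares were 21.7% and 41.1%. Of 35 replication genes, 15 (42.9%) held E2F letters, against 5.06% of tested genes and 2.60% of all symbols. Of 32 glycolysis and hypoxia genes, 29 (90.6%) held the hypoxia core, against 70.0% and 46.7%. E2F letters were in 7.26% of the genes called lower and in 2.54% of those called higher. The Cirbp element TCCCCGCC was present once, from base -247 to base -240 relative to its start, and its letters were in 11.8% of tested genes. A match is letters in a window, not a measured site.

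Among G1 cyclins and CDK inhibitors 3 of 13 rose and 3 fell. With each library left out in turn, 1 to 3 passed as higher and 1 to 4 as lower. Cdkn1a, the p21 inhibitor of cyclin-dependent kinases (chromosome 17, 29227931 to 29237667), was at 95.9 and 114 FPKM in mock 32 °C against 27.3 and 23.2 in siCirbp (log2 difference 2.01, SE 0.30, limma adjusted p = 0.00241). Mock 37 °C stood near siCirbp, at 31.5 and 36.2 FPKM. Ccnd3, cyclin D3, fell (22.2 and 22.9 FPKM in mock 32 °C against 66.03 and 47.1 in siCirbp), as did Rbl1, the pocket protein p107 (7.08 and 8.08 FPKM in mock 32 °C against 14.4 and 17.6 in siCirbp), and Cdk4, the partner of D cyclins (198 and 219.6 FPKM in mock 32 °C against 369.5 and 328 in siCirbp). The p53 target list, of which Cdkn1a is a member, rose in 14 of 30 and fell in 1, with a median of 0.68. Eda2r, the ectodysplasin A2 receptor, was at 41.3 and 44.1 FPKM in mock 32 °C against 5.78 and 4.61 in siCirbp (log2 difference 2.83, SE 0.24, limma adjusted p = 0.000278). Ccng1, cyclin G1, was at 163 and 189 FPKM in mock 32 °C against 22.5 and 36.8 in siCirbp (2.57). Mdm2, the ubiquitin ligase of p53, was at 60.4 and 58.97 FPKM in mock 32 °C against 27.1 and 24.6 in siCirbp and Gadd45a, a growth-arrest protein, at 38.4 and 40.6 FPKM in mock 32 °C against 12.6 and 12.7 in siCirbp. Without mock 32 °C replicate 1 or 2, 9 of the 30 passed as higher, against 23 with median centring or quantile normalization and 21 without the siRbm3 libraries. The p53 gene itself, Trp53, which is no list member and was looked up after the list was read, was lower (16.7 and 16.8 FPKM in mock 32 °C against 34.03 and 46.8 in siCirbp, log2 difference -1.20, SE 0.18, limma adjusted p = 0.0028).

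Targets of the transcription factor ATF4, including aminoacyl-tRNA synthetases, rose in 13 of 31 with none lower (median 0.47). Leaving out mock 32 °C replicate 1 or 2, 4 passed. Atf4 was at 358 and 358 FPKM in mock 32 °C against 133 and 174 in siCirbp (log2 difference 1.23, SE 0.22, limma adjusted p = 0.00506). Psph, the last enzyme of serine synthesis, was at 79.4 and 86.7 FPKM in mock 32 °C against 9.5 and 27.1 in siCirbp (2.29), Chac1, a glutathione-degrading enzyme, at 37.2 and 36.1 FPKM in mock 32 °C against 6.95 and 11.7 in siCirbp, and Slc7a11, the cystine transporter, at 7.49 and 5.97 FPKM in mock 32 °C against 0.697 and 1.42 in siCirbp. ER chaperones and unfolded protein response genes were split, with 3 higher and 8 lower of 24. Atf6, a sensor of unfolded protein in the ER, rose (29.6 and 29.8 FPKM in mock 32 °C against 7.39 and 12.9 in siCirbp), while the chaperones Hyou1 (11.9997 and 11.6 FPKM in mock 32 °C against 19.9 and 27.7 in siCirbp), Dnajb11 (25.7 and 28.1 FPKM in mock 32 °C against 43.7 and 47.4 in siCirbp) and Creld2 (22.1 and 25.8 FPKM in mock 32 °C against 39.2 and 45.4 in siCirbp) fell. The list's median of -0.08 turned to 0.12 with median centring, when 6 passed each way. With each library left out in turn, 1 to 5 passed as higher and 0 to 8 as lower, with 0 lower without mock 32 °C replicate 1.

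Cytosolic and mitochondrial heat shock chaperones fell in 9 of 28, with none higher (median -0.36), in 4 without mock 32 °C replicate 1 or 2 and in 5 with median centring. The 32.1% called is near the 31.7% of all tested genes. Hsp90ab1, the constitutive cytosolic HSP90, was at 449 and 466 FPKM in mock 32 °C against 1332 and 1503 in siCirbp (log2 difference -1.63, SE 0.19, limma adjusted p = 0.000904). Its co-chaperone Stip1 was at 80.4 and 84.8 FPKM in mock 32 °C against 156 and 162 in siCirbp, the HSP110 gene Hsph1 at 21.03 and 21.3 FPKM in mock 32 °C against 53.7 and 93.97 in siCirbp, and Bag3, a nucleotide exchange factor of HSP70, at 9.4 and 10.1 FPKM in mock 32 °C against 29.3 and 32.2 in siCirbp. Mock 37 °C was close to siCirbp for Bag3 (30.1 and 31.7) and lay between the groups for Stip1 (112 and 116) and Hsp90ab1 (1058 and 999).

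Glycolysis and hypoxia-inducible genes were lower in mock 32 °C in 15 of 33, and none was higher (median -0.999). Pfkl, the liver-type phosphofructokinase, was at 12.9 and 14.1 FPKM in mock 32 °C against 140.4 and 75.4 in siCirbp (log2 difference -2.84, SE 0.28, limma adjusted p = 0.000531), and its muscle-type paralogue Pfkm at 52.2 and 56.5 FPKM in mock 32 °C against 122 and 111 in siCirbp. Hk1, hexokinase 1, was at 17.8 and 19.3 FPKM in mock 32 °C against 92.8 and 65.7 in siCirbp, and Ddit4, a hypoxia- and stress-induced inhibitor of mTORC1, at 59.2 and 68.6 FPKM in mock 32 °C against 234 and 166 in siCirbp. The 2 siCirbp libraries were unequal here, with replicate 1 above replicate 2 in all 4 genes. The number called was 11 without siCirbp replicate 1, 25 without replicate 2 and 8 without mock 32 °C replicate 1 or 2. Mock 37 °C lay between the groups in only 4 of the 33, against 4231 (39.4%) of all tested genes. For Hk1 it stood at 90.3 and 93.1 FPKM, above siCirbp replicate 2. Of 15 glycogen genes 1 passed, Gys1, glycogen synthase 1 (13.8 and 13.7 FPKM in mock 32 °C against 139 and 52.01 in siCirbp; log2 difference -2.54, SE 0.46, limma adjusted p = 0.00544), and its siCirbp libraries lay far apart. Without siCirbp replicate 2, 7 of the 15 passed as lower. Pgm2 (53.8 and 63.9 FPKM in mock 32 °C against 185 and 67.7 in siCirbp) and Phka2 (7.12 and 6.61 FPKM in mock 32 °C against 12.2 and 8.89 in siCirbp) did not pass.

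Fatty acid synthesis and desaturation genes fell in 7 of 17 with none higher (median -0.56), and in 3 and 4 without mock 32 °C replicates 1 and 2, while with median centring 2 were higher. Scd2, a stearoyl-CoA desaturase, was at 221 and 236 FPKM in mock 32 °C against 882 and 774 in siCirbp (log2 difference -1.85, SE 0.24, limma adjusted p = 0.0014). The desaturases Fads1 and Fads2 were at 33.9 and 37.0003 FPKM in mock 32 °C against 97.6 and 73.3 in siCirbp and at 17.3 and 17.8 FPKM in mock 32 °C against 56.7 and 49.4 in siCirbp, and Srebf1, the transcription factor SREBP-1, at 13.5 and 13.3 FPKM in mock 32 °C against 44.8 and 37.2 in siCirbp. Cholesterol synthesis and uptake had 9 lower and 2 higher of 24, and with median centring its median of -0.18 became 0.01 and 7 were higher. Srebf2 (38.2 and 37.3 FPKM in mock 32 °C against 80.1 and 88.8 in siCirbp) and Mvk (9.64 and 9.36 FPKM in mock 32 °C against 21.04 and 25.1 in siCirbp) fell, and Hsd17b7, another enzyme of the pathway, rose (15.6 and 15.5 FPKM in mock 32 °C against 7.39 and 6.71 in siCirbp). Without mock 32 °C replicate 1, 3 cholesterol genes passed as lower, and 4 without replicate 2.

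**Figure D3:**
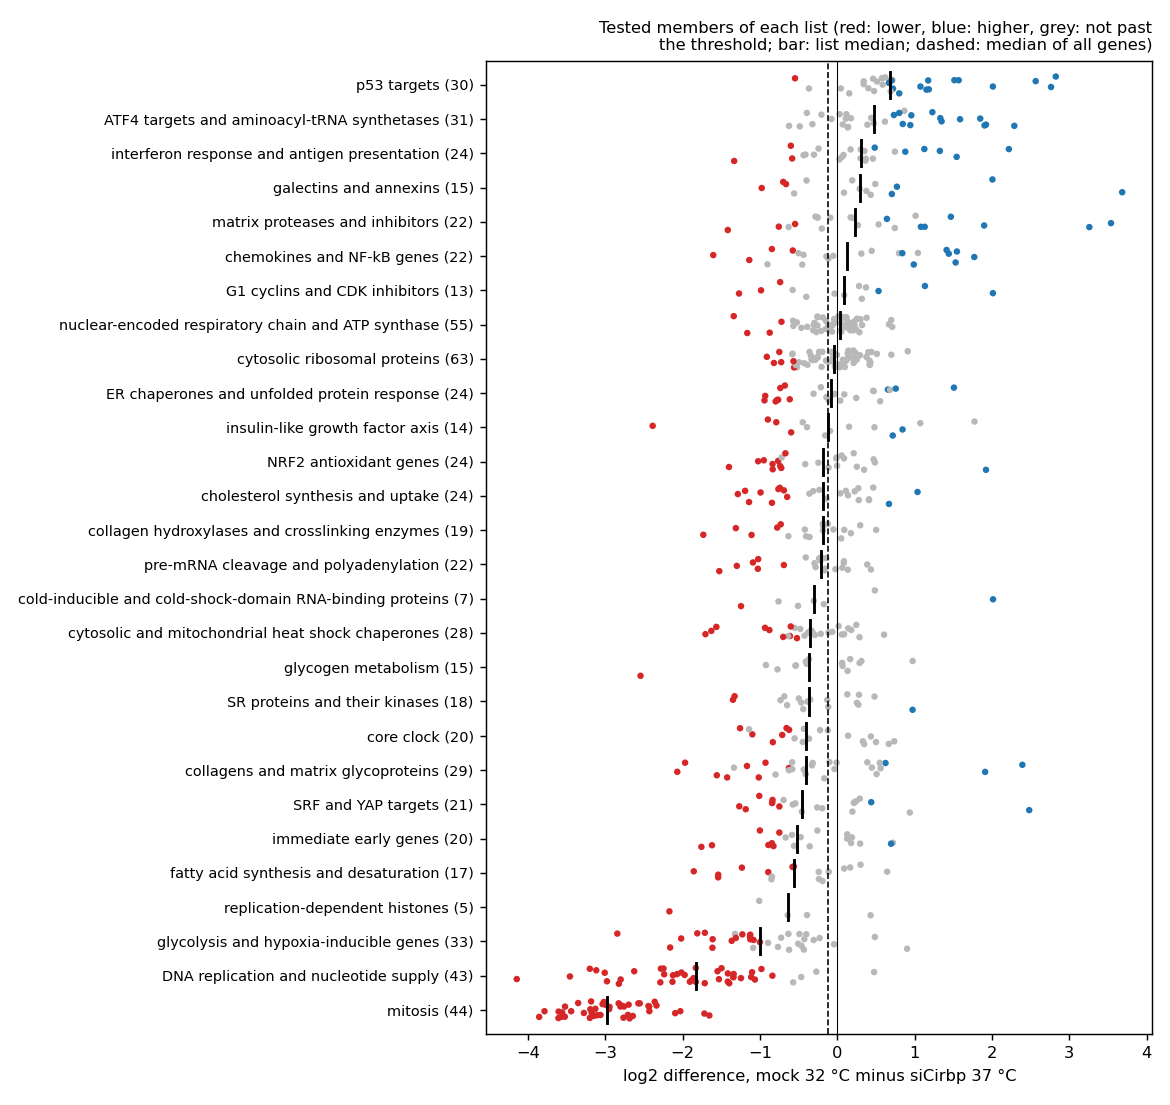
Log2 difference (mock 32 °C minus siCirbp, horizontal axis) of each tested member of the 28 lists, ordered by list median (black bars), with the number tested in brackets; the dashed line is the median of all genes. Mitosis (-2.97), DNA replication (-1.83) and glycolysis (-0.999) have the lowest medians, and p53 targets (0.68) and ATF4 targets (0.47) the highest.

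Collagens and matrix glycoproteins moved both ways, with 8 lower and 3 higher of 29 (median -0.41). These 27.6% lower and 10.3% higher are near the 22.4% and 9.24% of all tested genes. Mock 37 °C lay between the groups in 7 of the 29, and for Col1a1 it was above both, at 675 and 775 FPKM. Col1a1, the alpha1 chain of type I collagen, was at 194 and 177 FPKM in mock 32 °C against 457 and 545 in siCirbp (log2 difference -1.42, SE 0.17, limma adjusted p = 0.000959), whereas Dcn, the collagen-binding proteoglycan decorin, was at 1096 and 1188 FPKM in mock 32 °C against 291 and 315 in siCirbp (log2 difference 1.91, SE 0.15, limma adjusted p = 0.000181). Tnc, tenascin C, fell (29.1 and 28.5 FPKM in mock 32 °C against 99.3 and 134 in siCirbp), as did Fbln1, fibulin 1 (0.26 and 0.263 FPKM in mock 32 °C against 3.97 and 4.63 in siCirbp). Col3a1, the chain of type III collagen, was higher (133 and 121 FPKM in mock 32 °C against 15.4 and 35.2 in siCirbp), so Col1a1 and Col3a1 went in opposite directions. The other chain of type I collagen, Col1a2, is not given here. With each library left out in turn, 1 to 5 passed as higher and 3 to 11 as lower. Of 19 collagen-modifying enzymes 5 fell and none rose, among them Lox, lysyl oxidase (72.9 and 74.9 FPKM in mock 32 °C against 365 and 168 in siCirbp), P4ha2, a prolyl hydroxylase (33.8 and 34.1 FPKM in mock 32 °C against 83.98 and 87.6 in siCirbp), Plod3, a lysyl hydroxylase (15.4 and 16.5 FPKM in mock 32 °C against 32.04 and 39.2 in siCirbp), and Serpinh1, the collagen chaperone HSP47 (279 and 286 FPKM in mock 32 °C against 444 and 496 in siCirbp). Mock 37 °C lay between the groups in 5 of the 19 enzymes, and was above both for Lox (471 and 456 FPKM) and P4ha2 (181 and 190). The 26.3% lower is near the 22.4% of all tested genes. None passed without mock 32 °C replicate 1 or 2, and with median centring 3 passed as lower and 1 as higher and the list's median of -0.19 turned to 0.01.

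Matrix proteases and inhibitors rose in 7 and fell in 3 of 22 (median 0.23). Mmp13, a collagenase, was at 15.9 and 18.2 FPKM in mock 32 °C against 0.769 and 0.36 in siCirbp (log2 difference 3.54, SE 0.19, limma adjusted p = 4.18e-05), Mmp3, stromelysin 1, at 37.8 and 36.9 FPKM in mock 32 °C against 4.89 and 1.72 in siCirbp (3.26), and Mmp10, stromelysin 2, at 7.42 and 8.65 FPKM in mock 32 °C against 1.16 and 1.7 in siCirbp. Adamts5, an aggrecanase, was at 4.16 and 4.29 FPKM in mock 32 °C against 1.34 and 1.43 in siCirbp. Mock 37 °C was nearer to siCirbp for Mmp13 (1.84 and 2.00). With each library left out in turn, 4 to 8 passed as higher and 0 to 3 as lower, the fewest without a mock 32 °C library. SRF and YAP targets, many of them genes of the contractile cytoskeleton, fell in 7 and rose in 2 of 21 (median -0.46). Actn1 (25.6 and 24.9 FPKM in mock 32 °C against 53.99 and 71.4 in siCirbp), Tpm2 (42.3 and 40.6 FPKM in mock 32 °C against 90.7 and 78.3 in siCirbp) and Myh9 (74.8 and 67.4 FPKM in mock 32 °C against 144 and 183 in siCirbp) fell, and Ankrd1, a nuclear ankyrin-repeat protein, rose (111 and 96.4 FPKM in mock 32 °C against 15.6 and 20.03 in siCirbp; log2 difference 2.48, SE 0.18, limma adjusted p = 0.000129). With each library left out in turn, 1 to 3 passed as higher and 3 to 11 as lower.

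Immediate early genes fell in 7 and rose in 1 of 20 (median -0.52). Without mock 32 °C replicate 1 or 2, 2 passed as lower, and 11 without the siRbm3 libraries. Jun, a subunit of AP-1, was at 6.63 and 6.24 FPKM in mock 32 °C against 19.2 and 24.8 in siCirbp (log2 difference -1.62, SE 0.18, limma adjusted p = 0.000784), Fos at 1.34 and 1.3 FPKM in mock 32 °C against 3.51 and 2.73 in siCirbp, Egr2 at 3.63 and 3.52 FPKM in mock 32 °C against 16.1 and 12.9 in siCirbp and Klf4 at 8.05 and 6.46 FPKM in mock 32 °C against 12.1 and 13.5 in siCirbp. Fos in mock 37 °C was above both groups, at 13.9 and 13.6 FPKM, so both groups lay below it. Chemokines and NF-kB genes had 7 higher and 4 lower of 22 (median 0.13). Ccl9 (13.3 and 15.6 FPKM in mock 32 °C against 3.15 and 3.91 in siCirbp) and Cxcl1 (48.1 and 46.9 FPKM in mock 32 °C against 15.9 and 15.3 in siCirbp), both chemokines, and Ptgs2, cyclooxygenase 2 (68.3 and 62.5 FPKM in mock 32 °C against 23.3 and 24.5 in siCirbp), rose, while Nfkb2, the p100 subunit of NF-kB, fell (20.2 and 19.2 FPKM in mock 32 °C against 50.4 and 75.99 in siCirbp; log2 difference -1.60, SE 0.21, limma adjusted p = 0.00143). For Cxcl1 mock 37 °C was higher still, at 64.8 and 64.5 FPKM. In the NF-kB list, with each library left out, 5 to 7 passed as higher and 2 to 5 as lower.

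Interferon response and antigen presentation genes rose in 6 and fell in 3 of 24 (median 0.30). Ifi44 was at 9.72 and 9.24 FPKM in mock 32 °C against 2.49 and 0.448 in siCirbp, Isg15 at 12.03 and 13.9 FPKM in mock 32 °C against 6.25 and 3.25 in siCirbp and Ifit1 at 2.04 and 1.9 FPKM in mock 32 °C against 0.536 and 0.205 in siCirbp, all low. Tapbp, tapasin, which loads peptides onto MHC class I, fell (22.4 and 23.8 FPKM in mock 32 °C against 58.6 and 60.8 in siCirbp; log2 difference -1.33, SE 0.14, limma adjusted p = 0.000643). Leaving out each library in turn, 2 to 7 passed as higher and 1 to 4 as lower. Galectins and annexins rose in 4 and fell in 3 of 15 (median 0.29). Lgals3, galectin 3 (chromosome 14, 47993535 to 48005842), was at 106 and 119 FPKM in mock 32 °C against 7.95 and 7.65 in siCirbp (log2 difference 3.68, SE 0.56, limma adjusted p = 0.00261), with mock 37 °C at 83.4 and 85.4. Here siCirbp was far below both mock groups, and the siRbm3 libraries stood at 17.5 and 80.9 FPKM. Anxa8, an annexin, rose (32.7 and 36.7 FPKM in mock 32 °C against 6.01 and 10.2 in siCirbp), and Anxa2 (423 and 515 FPKM in mock 32 °C against 745 and 773 in siCirbp) and Anxa6 (44.6 and 47.1 FPKM in mock 32 °C against 98.6 and 84.1 in siCirbp) fell. Here, with 1 library less, 2 to 6 passed as higher and 1 to 4 as lower, and with median centring 8 as higher. In the insulin-like growth factor axis 2 rose and 4 fell of 14. Igfbp3 fell most (0.558 and 0.927 FPKM in mock 32 °C against 8.04 and 8.08 in siCirbp; log2 difference -2.39, SE 0.17, limma adjusted p = 0.000104), with Igf2bp1 (6.21 and 5.96 FPKM in mock 32 °C against 12.4 and 12.02 in siCirbp) and Igf2bp2 (17.9 and 16.8 FPKM in mock 32 °C against 33.7 and 27.9 in siCirbp), and Igfbp6 rose (21.5 and 20.2 FPKM in mock 32 °C against 12.2 and 10.3 in siCirbp). Its median of -0.12 turned to 0.07 with median centring, and with 1 library less, 0 to 4 passed as higher and 2 to 5 as lower. NRF2 antioxidant genes had 9 lower and 1 higher of 24, with a median of -0.18 that turned to 0.02 in the same way. Pgd, of the pentose phosphate pathway (39.8 and 46.4 FPKM in mock 32 °C against 126 and 105 in siCirbp), Cat, catalase (12.6 and 12.3 FPKM in mock 32 °C against 23.97 and 21.99 in siCirbp), and Txn1, thioredoxin (106 and 106 FPKM in mock 32 °C against 167 and 185 in siCirbp), fell, while Slc7a11 of this list rose. Without mock 32 °C replicate 1 or 2, 2 of them passed as lower.

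The clock and polyadenylation lists, tied to roles of Cirbp named above, are given here with a list of SR proteins. Mock 37 °C lay between the groups in 6 of 20 clock, 12 of 22 polyadenylation and 6 of 18 SR genes. The share of all tested genes was 39.4%. Of 20 tested core clock genes 6 fell and none rose (median -0.40), so 30.0% were called, near the 31.7% of all tested genes. With median centring 3 were lower and 1 higher. Nfil3, a repressor at D-box elements, was at 9.02 and 9.01 FPKM in mock 32 °C against 21.6 and 24.4 in siCirbp (log2 difference -1.26, SE 0.21, limma adjusted p = 0.00417), Arntl, which encodes BMAL1, at 10.2 and 11.8 FPKM in mock 32 °C against 20.7 and 19.9 in siCirbp, Cry1 at 4.16 and 4.65 FPKM in mock 32 °C against 8.06 and 6.98 in siCirbp and Bhlhe40, the repressor DEC1, at 35.2 and 38.4 FPKM in mock 32 °C against 95.8 and 66.4 in siCirbp. Only 1 and 2 passed without mock 32 °C replicates 1 and 2. Of 22 genes of pre-mRNA cleavage and polyadenylation 6 fell and none rose (median -0.21). The 27.3% lower is near the 22.4% of all tested genes, and the median was -0.01 with median centring. These were Sympk, the scaffold symplekin (10.6 and 10.6 FPKM in mock 32 °C against 32.8 and 32.02 in siCirbp; log2 difference -1.52, SE 0.18, limma adjusted p = 0.00103), Cpsf1 (11.4 and 10.7 FPKM in mock 32 °C against 21.6 and 25.5 in siCirbp), Pabpn1, the nuclear poly(A)-binding protein (32.1 and 31.5 FPKM in mock 32 °C against 73.2 and 59.2 in siCirbp), Pabpc1, the cytoplasmic one (61.5 and 59.0046 FPKM in mock 32 °C against 149 and 150.5 in siCirbp), and Cpsf7 and Pabpc4. Of these 3 passed without mock 32 °C replicate 2. Of 18 SR proteins and their kinases, regulators of splicing, 2 fell and 1 rose. Srsf4 (15.4 and 13.8 FPKM in mock 32 °C against 36.5 and 40.9 in siCirbp) and Srsf9 (36.9 and 39.6 FPKM in mock 32 °C against 99.4 and 95.5 in siCirbp) fell, Srsf5 rose (30.7 and 37.9 FPKM in mock 32 °C against 20.1 and 14.1 in siCirbp), and Srsf2 (103 and 108 FPKM in mock 32 °C against 146 and 189 in siCirbp) did not pass. With each library left out in turn, 0 to 2 passed as higher and 2 to 8 as lower.

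Ribosomal proteins and the respiratory chain stood near the median of all genes. Of 63 cytosolic ribosomal protein genes 6 fell and none rose (median -0.04). Rpl30 (5.42 and 6.97 FPKM in mock 32 °C against 11.7 and 13.3 in siCirbp), Rps2 (8.28 and 10.1 FPKM in mock 32 °C against 14.2 and 20.1 in siCirbp), Rpsa (4.31 and 4.19 FPKM in mock 32 °C against 7.66 and 7.68 in siCirbp) and Rpl31 (10.5 and 11.2 FPKM in mock 32 °C against 20.8 and 17.2 in siCirbp) had the smallest adjusted p. Their levels are low for genes of this kind, which have many near-identical copies in the genome, and how the authors placed shared reads is not given in the sources used here. Of 55 respiratory chain and ATP synthase genes 4 fell and none rose (median 0.04), namely Uqcrc1 (22.2 and 24.4 FPKM in mock 32 °C against 62.3 and 58.5 in siCirbp), Atp5d (59.6 and 65.3 FPKM in mock 32 °C against 152 and 131 in siCirbp), Cyc1 (59.6 and 71.4 FPKM in mock 32 °C against 115 and 125 in siCirbp) and Atp5b (419 and 477 FPKM in mock 32 °C against 796 and 683 in siCirbp). With the trend on transcript length removed these medians became -0.31 and -0.22, and 16 ribosomal and 13 respiratory genes passed as lower. With median centring 5 ribosomal genes passed as higher and 2 as lower, and 4 respiratory genes passed each way, so neither list has a direction that holds over the scalings. Of the ribosomal genes, with each library left out in turn, 0 to 2 passed as higher and 0 to 9 as lower. Of the respiratory genes, 0 to 3 passed as higher and 2 to 6 as lower.

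Markers were read to check the cells. Vim and S100a4, genes that fibroblasts express strongly, were at 1948 and 1828 FPKM in mock 32 °C against 1939 and 1337 in siCirbp and at 7339 and 10168 FPKM in mock 32 °C against 3576 and 3281 in siCirbp, and Col1a1 was high in all 4 libraries. Thy1, another fibroblast marker, was listed at 0, and Lum and Fap were under 1 FPKM in all 4. The sum of 14 fibroblast markers was 10972 and 13738 FPKM in mock 32 °C against 6642 and 5917 in siCirbp, led by S100a4. Of 11 tested, 4 rose and 3 fell, Prrx1 among the latter (42.5 and 41.04 FPKM in mock 32 °C against 105 and 89.9983 in siCirbp). Of 10 macrophage markers 8 were under 1 FPKM in all 4 libraries, Emr1, Csf1r and Ptprc included, and the sum was 30.5 and 36.05 FPKM in mock 32 °C against 15.01 and 14.2 in siCirbp, made up mostly of Cd68 (17.3 and 21.03 FPKM in mock 32 °C against 7.82 and 3.11 in siCirbp) and Cd14 (12.9 and 14.6 FPKM in mock 32 °C against 6.93 and 10.6 in siCirbp). Of 11 epithelial and mesothelial markers 9 were under 1 FPKM, Epcam and Cdh1 included. The sum was 32.2 and 37.4 against 15.3 and 11.7 FPKM, nearly all of it Msln (31.96 and 37.3 FPKM in mock 32 °C against 13.8 and 10.3 in siCirbp; log2 difference 1.45, SE 0.19, limma adjusted p = 0.00139). Of 10 endothelial markers 7 were under 1 FPKM, Pecam1 and Cdh5 included, with sums of 13.1 and 14.0 against 20.7 and 12.2 and values for Flt1 of 10.5 and 10.7 FPKM in mock 32 °C against 17.04 and 9.47 in siCirbp, for Egfl7 of 0.896 and 1.73 FPKM in mock 32 °C against 1.88 and 1.38 in siCirbp and for Eng of 1.41 and 1.17 FPKM in mock 32 °C against 1.21 and 0.972 in siCirbp. Of 10 muscle markers 7 were under 1 FPKM, Myod1 and Ckm at 0, with sums of 40.1 and 44.4 against 69.1 and 67.8 FPKM that were led by Tnnt2 (36.6 and 39.02 FPKM in mock 32 °C against 63.6 and 66.2 in siCirbp), ahead of Tnnc1 (1.94 and 3.58 FPKM in mock 32 °C against 1.81 and 0.575 in siCirbp) and Des (1.21 and 1.09 FPKM in mock 32 °C against 3.09 and 0.531 in siCirbp). Of 8 adipocyte markers 6 were under 1 FPKM, Adipoq and Pparg included. Fabp4 was unequal in the siCirbp libraries (26.7 and 26.7 FPKM in mock 32 °C against 25.1 and 5.26 in siCirbp). In mock 37 °C it was at 10.2 and 9.98 FPKM and in siRbm3 at 6.58 and 10.1, so siCirbp replicate 1 stood apart at 37 °C. Lipe fell (2.81 and 2.97 FPKM in mock 32 °C against 8.11 and 5.9 in siCirbp). The list sums were 30.0 and 30.2 against 34.5 and 11.96 FPKM. Of 8 neural markers 5 were under 1 FPKM, and the sums of 18.1 and 18.8 against 58.2 and 77.4 FPKM were those of Nes (6.77 and 6.94 FPKM in mock 32 °C against 19.6 and 38.7 in siCirbp) and Sox2 (10.4 and 10.9 FPKM in mock 32 °C against 36.9 and 37.8 in siCirbp; log2 difference -1.72, SE 0.16, limma adjusted p = 0.000362). The part of any other cell type in the results was not tested.

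The 12 largest rises and 12 largest falls among called genes that reach 5 FPKM in the group where they are higher include several described above. Of the others, Crct1, a cysteine-rich protein of the epidermal differentiation complex, was at 14.6 and 19.4 FPKM in mock 32 °C against 0.659 and 0.14 in siCirbp (log2 difference 3.70, SE 0.29, limma adjusted p = 0.000206). The siCirbp level of Crct1 rested on as few as 3 fragments in replicate 2. Ogn, the small proteoglycan osteoglycin, was at 355 and 339.7 FPKM in mock 32 °C against 71.5 and 18.8 in siCirbp (log2 difference 3.20, SE 0.56, limma adjusted p = 0.00472), Grem1, a BMP antagonist, at 63.8 and 59.8 FPKM in mock 32 °C against 3.36 and 11.98 in siCirbp, and Mme, the surface peptidase neprilysin, at 12.4 and 11.6 FPKM in mock 32 °C against 0.766 and 0.168 in siCirbp. Ppbp, a platelet-type chemokine, was at 20.2 and 23.7 FPKM in mock 32 °C against 2.35 and 1.02 in siCirbp, Cdsn, corneodesmosin, at 60.3 and 55.2 FPKM in mock 32 °C against 8.3 and 5.81 in siCirbp, and Nlrp2 at 18.02 and 19.4 FPKM in mock 32 °C against 4.43 and 0.334 in siCirbp. The genes Gm11428 (12.6 and 21.7 FPKM in mock 32 °C against 0.857 and 0 in siCirbp) and E230016K23Rik (9.11 and 9.64 FPKM in mock 32 °C against 0.85 and 0.151 in siCirbp) complete the rises. In most of these rises mock 37 °C stood nearer to siCirbp, as for Crct1 at 1.82 and 1.73 FPKM and Gm11428 at 0.409 and 0.281, but not for Lgals3 or Cdsn (31.8 and 36.2). The falls not yet described were 2810417H13Rik (1.11 and 1.23 FPKM in mock 32 °C against 23.2 and 35.1 in siCirbp), Nuf2 of the outer kinetochore (1.18 and 1.63 FPKM in mock 32 °C against 24.9 and 28.1 in siCirbp), Espl1, separase (0.953 and 0.996 FPKM in mock 32 °C against 17.5 and 26.8 in siCirbp), Shcbp1 (1.42 and 2.05 FPKM in mock 32 °C against 26.8 and 32.3 in siCirbp) and Bub1, a checkpoint kinase (1.41 and 1.5 FPKM in mock 32 °C against 27.9 and 29.7 in siCirbp). Bub1 has a transcript whose estimate the authors' tables mark as failed in 1 of the 4 libraries.

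**Figure D4:**
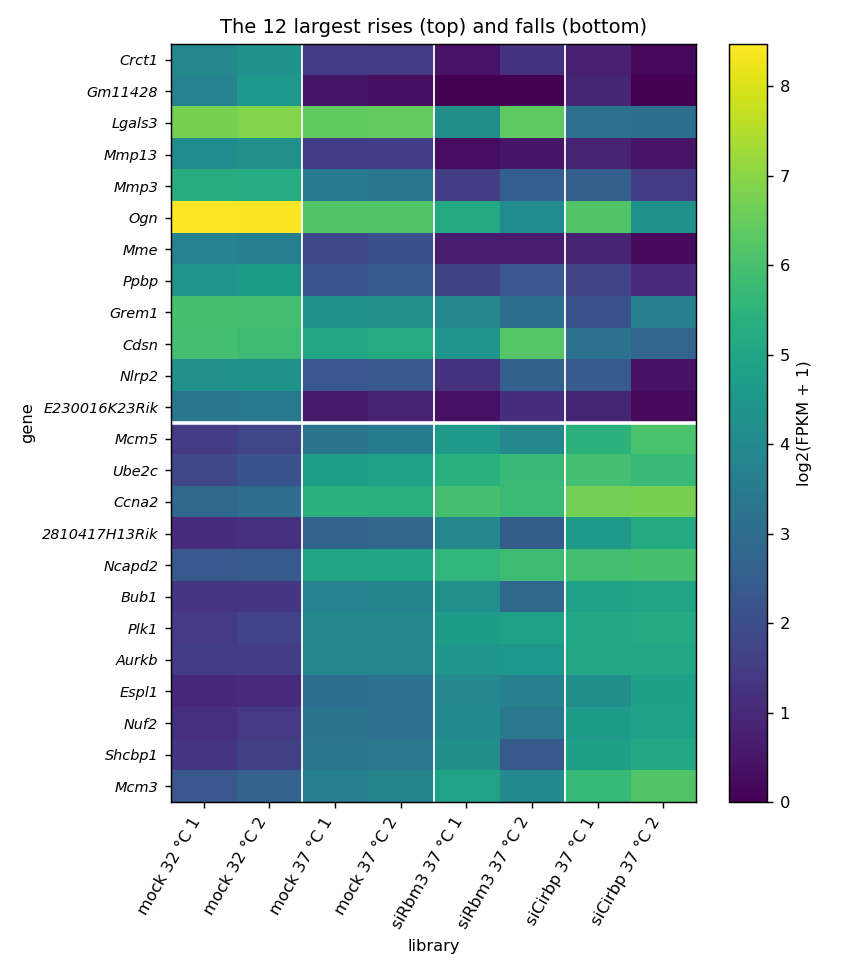
Log2(FPKM + 1), by colour, of the 12 largest rises (upper rows) and 12 largest falls (lower rows) in each of the 8 libraries (columns, by group). For Lgals3 mock 37 °C (83.4 and 85.4 FPKM) is near mock 32 °C and far above siCirbp (7.95 and 7.65 FPKM). The siRbm3 libraries are at 17.5 and 80.9 FPKM for this gene. For the cell cycle genes of the lower rows mock 37 °C lies between the groups.

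Mock 37 °C lay between the groups in 610 of the 993 genes called higher (61.4%) and in 1643 of the 2410 called lower (68.2%), against 39.4% of all tested genes. In 359 of the higher genes mock 37 °C was below both groups, and in 649 of the lower genes it was above both. These shares follow in part from the calls, since groups that lie far apart leave more room between them.

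PAR-CLIP sites of Cirbp and Rbm3 were set against the calls. At least 1 of the 1941 Cirbp sites overlapped the span of 901 tested genes, of which 262 (29.1%) were called, against 31.9% of the 9840 others. Of the bound genes 61 were higher and 201 lower, with a median difference of -0.10 against -0.12. Of the 130 tested genes with 3 or more Cirbp sites, 27 (20.8%) were called, 7 (5.38%) higher and 20 (15.4%) lower, and these had longer transcripts (median 4550 nt) and higher levels (median 37.7 FPKM) still. Genes with an Rbm3 site (948 tested, 2118 sites) were called in 36.0%, of which 302 (31.9% of the bound) were lower and 39 (4.11%) higher. The others were lower in 21.5% and higher in 9.74%. The median difference was -0.28 with an Rbm3 site and -0.10 without. Bound genes had longer transcripts (median 3873 nt for Cirbp and 3699.5 for Rbm3, against 2704.5 and 2709) and higher levels (median 23.6 and 17.6 FPKM, against 12.2 and 12.6), and the part of length and level in these shares was not tested. The sites are from 1 library each, and their overlaps are a description with no test.

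Single transcripts were compared within genes to see whether isoform use differed. Of 2887 transcripts of 1312 genes, 21 in 14 genes changed their share of the gene's FPKM (0.727%), while 486 transcripts had an unadjusted limma p under 0.05. Cdkn1a showed an upstream start: NM_001111099, which begins at 29227931 on chromosome 17, was read at 34.0 and 47.2 FPKM in mock 32 °C but at or near 0 in siCirbp, so NM_007669, which begins at 29230717, carried 64.6% and 58.6% of Cdkn1a in mock 32 °C and 100.0% in both siCirbp libraries (limma adjusted p = 0.0308). In mock 37 °C NM_007669 carried 98.7% to 100.0%. Fam120b held its transcripts NM_024203 and NR_033586 in near equal parts in siCirbp (49.5% and 46.7% for the former), while in mock 32 °C NM_024203 was at or near 0 (limma adjusted p = 0.00845). Mtm1, the phosphatase myotubularin, had 90.5% and 70.2% of its FPKM in NM_001164191 in mock 32 °C and at or near 0 in siCirbp (limma adjusted p = 0.0472). Acin1, an RNA-binding protein of apoptosis and splicing, had 40.2% and 35.0% in NM_001242605 against 4.97% and 1.501% (limma adjusted p = 0.0420). Mocs1 and Hipk3 differed by transcripts of nearly equal length (2629 against 2644 nt, 7493 against 7496 nt), NM_020042 of Mocs1 being at or near 0 in mock 32 °C and 70.7% and 54.1% in siCirbp. In Hipk3, a kinase, NM_001145824 was at or near 0 against 44.6% and 31.1%. In Cep110, a centrosome protein, NM_030000 carried 16.7% and 18.2% against 80.9% and 67.5%. Values at or near 0 for 1 of several near-identical transcripts may be failed estimates, and the split of reads among such transcripts was not tested. These calls are fragile: with only the 4 libraries in the fit none passed, and leaving out either siCirbp library also left none, while 2 passed without either mock 37 °C library.

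Transcript ends were compared in the same way, since the series' title names alternative polyadenylation. Taking transcripts that share a start and differ in their 3′ end, the share with the most distal end could be tested in 187 start groups of 184 genes (group mean of at least 5 FPKM, distal share of 10% to 90%). This test was added after the data were seen. By limma 30 (16.0%) passed, 23 with a lower and 7 with a higher distal share in mock 32 °C, and 69 had an unadjusted p under 0.05. For Zfp862, 1 of the 7, the distal end lies 1 nt past the next, which is no distinct end. Over all 187 the mean distal share was lower in mock 32 °C in 121 and higher in 66, with a median difference of -3.87 percentage points. The median distal share was 54.6% and 55.2% in the mock 32 °C libraries against 62.0% and 59.7% for siCirbp, with mock 37 °C at 59.3% and 59.1%. Among all 187 the shares of the 2 groups did not overlap in 82 start groups with a lower distal share and 36 with a higher one. So a lack of overlap does not set the called ones apart. In 29 of the 30 called the shares did not overlap, and 26 differed by over 10 points. The exception, Dlgap5, kept a distal share of 86.1% and 91.9% against 89.4% and 90.4%, while the gene was at 1.27 and 1.46 FPKM in mock 32 °C against 18.9 and 16.9 in siCirbp, so in mock 32 °C the added 1 FPKM weighs heavily in its ratio.

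Among the lower distal shares, Brcc3, a deubiquitinase subunit, had 38.4% and 44.5% of its FPKM at the distal end in mock 32 °C and 76.5% and 70.6% in siCirbp (limma adjusted p = 0.00196). Its 2 ends are at 72701040 and 72699340 on chromosome X. Lmna had 34.4% and 38.02% against 61.1% and 57.0% (limma adjusted p = 0.00333). The distal-ended mRNA of this gene is known to encode lamin A and the shorter one lamin C, and the gene as a whole fell by 1.09. Caprin1, an RNA-binding protein of stress granules with 2 Cirbp sites, had 42.6% and 45.0% against 64.0% and 62.4% in the larger of its 2 start groups (limma adjusted p = 0.00450), and its other start group passed in the same direction. Cdk12, a kinase of transcription elongation with 3 Cirbp and 2 Rbm3 sites, had 48.4% and 53.1% against 75.5% and 70.1%. Fnbp1 (45.4% and 58.7% against 89.4% and 82.7%) had the largest difference, and Arrdc4, an arrestin-like protein whose gene rose, had 19.6% and 17.8% against 46.0% and 43.6%. In the other direction, Rbmx, an RNA-binding protein of splicing with 1 Cirbp and 1 Rbm3 site, had 78.4% and 81.6% at its distal end in mock 32 °C against 46.7% and 48.8% (limma adjusted p = 0.00147). Chpt1 had 67.8% and 66.9% against 42.8% and 35.3%, Tmem80 53.8% and 54.6% against 28.3% and 24.9%, and Cp, ceruloplasmin, 28.3% and 29.5% against 13.9% and 11.3%. These genes were chosen after their values were seen, for size of difference or for a known RNA-binding role. Mock 37 °C lay between the groups in 23 of the 30 and in 85 of the 187. A Cirbp site lay in the gene in 7 of 30 (23.3%) and in 32 of 187 (17.1%), and an Rbm3 site in 3 of 30 and in 24 of 187. The ends lie within 10000 nt of each other in 20 of the 30 and in 104 of the 187, and the test does not separate different last exons from lengths of 1 last exon. The count fell to 8 and 10 without mock 32 °C replicates 1 and 2, to 13 and 15 without siCirbp replicates 1 and 2, and rose to 58 without either siRbm3 library.

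**Figure D5:**
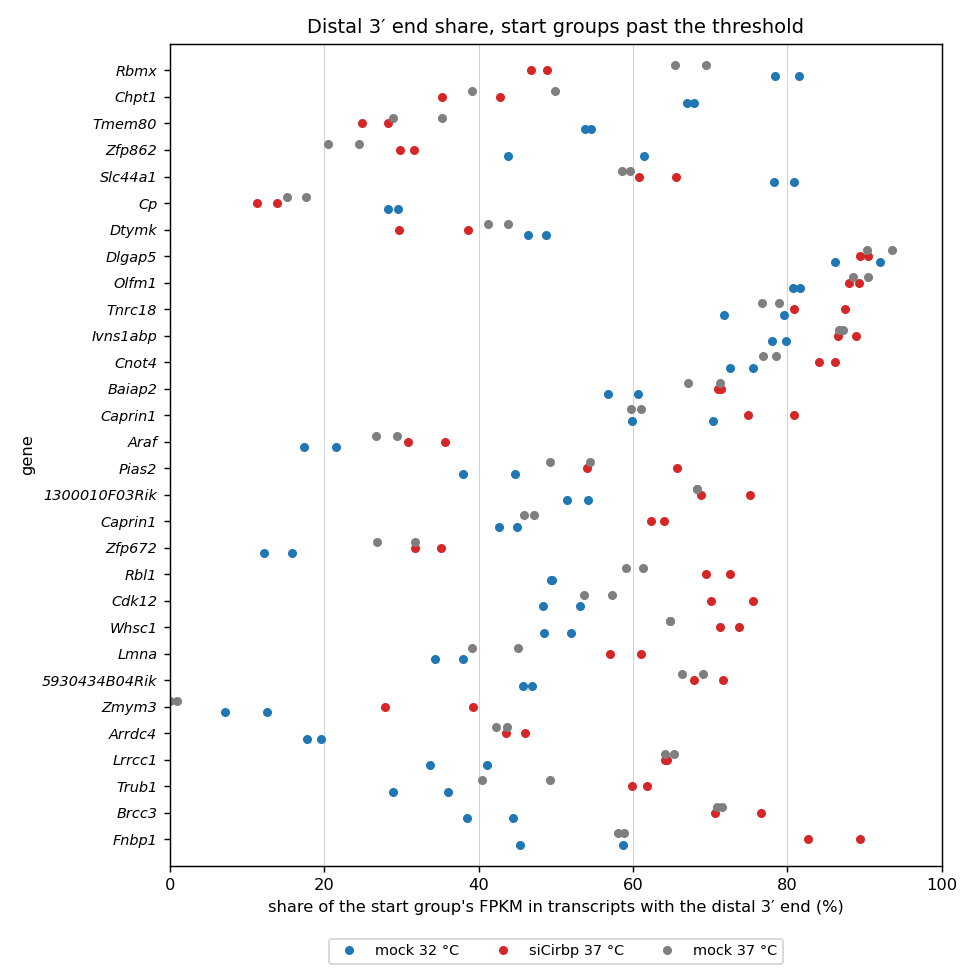
Share (horizontal axis, %) of a start group's FPKM carried by transcripts with the most distal 3′ end, for the 30 start groups past limma's threshold; each dot is a library and colours give mock 32 °C, siCirbp and mock 37 °C. In 23 groups mock 32 °C is called lower, as for Fnbp1 at the bottom (45.4% and 58.7% against 89.4% and 82.7%), and in 7 higher, as for Rbmx at the top.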

How the data were processed

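RNA-seq measured polyadenylated RNA of MEFs in 8 libraries, and PAR-CLIP gave 1 list of sites per protein. The FPKM values, deposited by the authors for 28702 transcripts in tables of the form Cufflinks writes, come from reads aligned to mm9 with TopHat 1.1.2, per the submitters' processing notes. The coverage signal, deposited by the authors beside FPKM, gave the depth through its ratio to FPKM. Transcript lengths are in nt, per the file headers. The score of each PAR-CLIP site was deposited by the authors on an unstated scale and was not used. The counting tool's version, the annotation release, the treatment of reads with several positions and the caller of sites are not given in the sources used here. In poly(A) libraries read without strand, overlapping genes on opposite strands cannot be told apart.

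FPKM were summed per gene. The fit used limma 3.58.1 (R 4.3.3) on log2(FPKM + 1), with the 4 group means of all 8 libraries, which share 1 estimate of the spread, with trended and robust moderation, two-sided tests and Benjamini-Hochberg adjustment over all 10741 genes at 0.05. It was also run on simulated data with independent noise of equal spread in all groups. Such data cannot show how the fit behaves with unequal replicates. The same fit served transcript shares, as the log2 ratio of one transcript to its gene's other transcripts after adding 1 FPKM to each (genes averaging 5 FPKM, transcripts holding 10% or more), and distal against other 3′ ends. The members, the 28 gene lists and the 7 marker lists were chosen with earlier results of these data known. Genes were named by rule: Cirbp and Rbm3, the 12 largest rises and falls among called genes that reach 5 FPKM where they are higher, without overlap, all tested cold-inducible genes, up to 4 members of each list by adjusted p, and the 5 largest changes in transcript share in each direction. Of the genes this rule chose, 3 are not reported here. Trp53, Mcm6, Vim, Col3a1, Cpsf7, Pabpc4, markers at or near 0 and the distal-end genes were named outside it, after their values were seen. Cdc20, Cdk1 and Pgk1, whose promoters are shown, were also named outside it. SDs are of 2 libraries. Promoters are RefSeq's on GRCm38.p6, matched by symbol or a single synonym for 8638 of the tested genes. Python 3.11.15 made the tables and figures.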

Additional observations from a re-analysis of the deposited data

How the results depend on the processing

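Of the 3403 called genes, 3034 were also called with the replicate block, which called 3116. The replicate numbers are not stated to pair libraries, and deviations of same-numbered libraries correlated from -0.26 to 0.26, so the block is given here only. With the block 0 transcripts passed for share (442 at an unadjusted limma p under 0.05), and 28 start groups for distal ends. With 1 library left out at a time, 1090 to 4813 genes passed, 192 to 1668 of them higher and 887 to 3146 lower, with 0 to 13 transcripts and 8 to 58 start groups. Median centring called 1799 genes higher, quantile normalization 1644 and the fit of 6 libraries without siRbm3 1670, against 993. With only the 4 libraries compared, 3450 genes, 0 transcripts (391 at an unadjusted limma p under 0.05) and 55 start groups passed, and without siRbm3 57 start groups. A left-out library leaves its group with 1 sample, which is assumed to vary like the others, and the cause of the changes was not tested. The named genes that changed sign had not passed: Carhsp1 at 0.0239 with median centring, Eng at -0.0213 with the highest transcript only, and, over left-out libraries, Egfl7 from -0.46 to 0.0631, Hist1h2bc from -1.57 to 0.79, Flt1 from -0.64 to 0.15 and Des from -0.93 to 0.49. Of 127 genes chosen by the naming rule that passed, 29 and 25 were lost without mock 32 °C replicates 1 and 2. Other pseudocounts (0.1 and 5), filters, moderation settings and the length trend left the gene counts within 1.5 times.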
